A study of Mus musculus with 4 samples.

Results

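Microglia, the resident macrophages of brain tissue, and the macrophages at brain borders were followed through 34 listed genes in mouse thalamus and hypothalamus at postnatal day 14. A gene counted as measured where a non-control array probe carried a RefSeq accession that maps to its symbol. This held for 33 of the 34 genes, among 18350 symbols with a probe on the array. No probe matched Cd68 through the accessions used. A probe with another accession, which may be that of Cd68, was left unmatched, so Cd68 may be on the array. For dark rearing, dams moved 1 to 4 days ahead of delivery into a cage wrapped against light, and their young were handled by dim red lamps up to day 14. Control mice lived in standard cages with 12 hours of light a day. Each group had 2 samples, labelled biological replicates, each on its own one-colour (Cy3) Agilent array, and neither strain, sex nor the number of animals per sample is given in the sources used here. The p-values measure the spread between these samples. The study asked how this tissue responds to the loss of visual input.

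Microglia enter the brain early in development and are kept alive by signalling through the CSF1 receptor, whose ligands are CSF1 and IL34. TGF-beta signalling and the transcription factors SALL1, PU.1 (encoded by Spi1) and IRF8 maintain their identity. Resting microglia survey tissue with purine receptors such as P2RY12, and sense debris and lipids through TREM2, which signals through the adaptor TYROBP. In the young brain they engulf synapses and dying cells. Border macrophages of the meninges and vessels are marked by the scavenger receptors MRC1 and CD163. In whole tissue, fewer cells of a type and less RNA per cell cannot be told apart.

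Between 65.9% and 73.3% of 41174 probes were well above background on each array, and no spot was saturated. Dark-reared 2 and control 2 shared slide 3, while control 1 was on slide 1 and dark-reared 1 on slide 2. The samples also differed in other ways within a group. Xist, which is expressed from the inactive X chromosome of females, was well above background in dark-reared 1 and control 1 only; Ddx3y, a Y-linked gene, was well above background in dark-reared 2 and control 2 with both of its probes, and in dark-reared 1 with 1 of the 2. The summed signal of 8 tested thalamus markers, in units of the 75th percentile of each array, was 7.37 and 23.3 in dark-reared samples and 44.2 and 11 in controls. That of 5 tested hypothalamus markers was 2.84 and 8.67 against 15 and 6.04, and Otp, Sim1, Six6, Agrp and Pmch did not pass the detection filter. Each value that follows is a log2 signal after subtraction of its array's 75th percentile, in the order dark-reared 1, dark-reared 2, control 1 and control 2. A signal depends on the probe, so levels are compared between arrays and not between genes.

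Rearing in the dark gave no call for any gene of the list. A total of 32 of the 33 genes with a probe were well above background on all 4 arrays and were tested among 21642 genes; Spi1 stayed below that level on each of them. In limma 0 of the 32 passed at a Benjamini-Hochberg adjusted p of 0.05 (lowest 1.00), and 0 of all genes did (lowest 0.303), a background of 0%. At an unadjusted p under 0.05 stood 1 of the 32 (Cd53), against 271 of 21642 genes, or 1.25%. The median log2 difference, dark-reared minus control, was 0.07 for the list and -0.01 for all tested genes. Of the 32 genes 23 had a positive difference and 9 a negative one, where 48.1% of all genes were positive. The list median turned to -0.04 without dark-reared 1 (14 of 32 positive) and to -0.18 without control 1 (8 of 32 positive). Within slide 3 it was -0.28 (9 of 32 positive), and without control 2 it was 0.37. Of all genes, 50.2% were positive without dark-reared 1, 45.3% without control 1 and 48.3% within slide 3. None of the 32 genes was 1.5-fold apart or more, where 1.93% of all genes were at least 1.5-fold higher and 4.34% at least 1.5-fold lower.

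The intervals around these differences were wide. The median 95% interval of a listed gene reached 0.82 to each side on the log2 scale. The smallest p that a two-sided exact permutation of 2 against 2 samples allows is 0.333. Both dark-reared values lay above both control values for Cd53 and Cd163, and 0 genes had both below. These 2 and 0 of 32 genes stand beside 9.52% of all genes with no overlap on the higher side and 9.58% on the lower side.

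**Figure D1:**
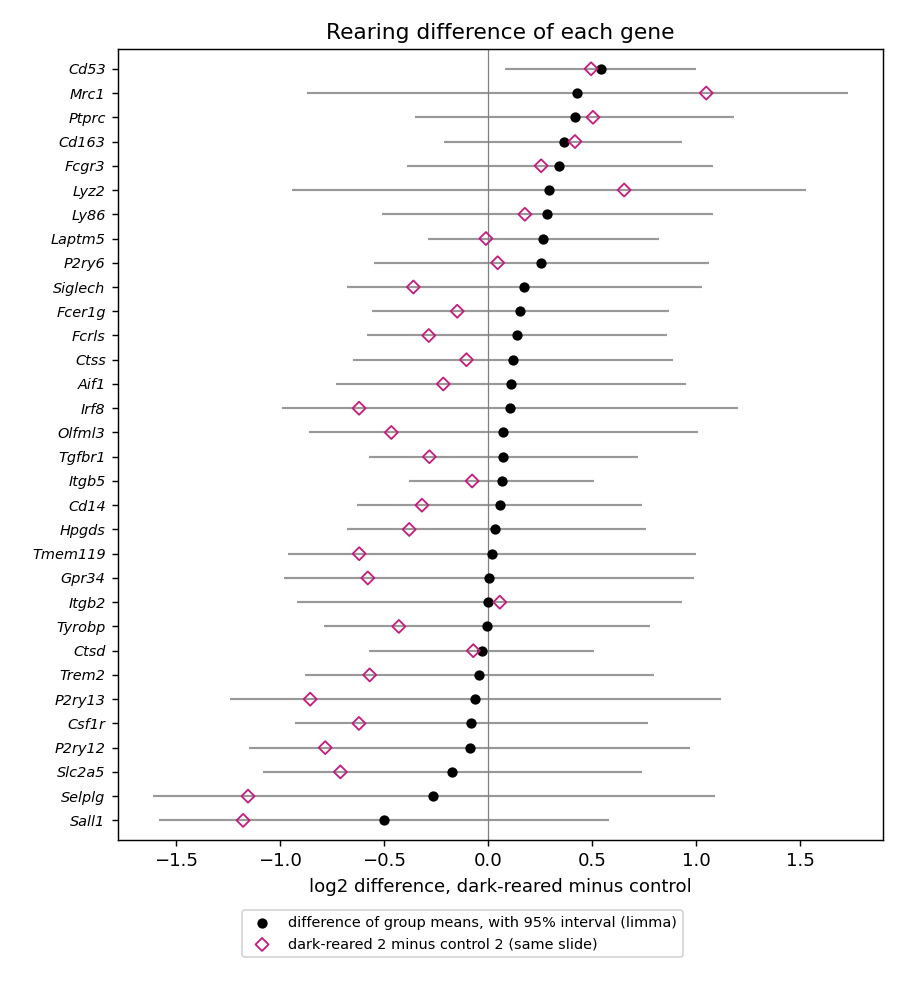
Log2 difference between dark-reared and control samples (horizontal axis) for each of the 32 tested genes, ordered by the difference. Black points are differences of group means (n = 2 each) with the 95% limma interval as a line, and open diamonds are dark-reared 2 minus control 2, which shared a slide. All intervals but that of Cd53 span 0, and 23 of the 32 diamonds lie below 0. Of all tested genes, 48.3% had this within-slide difference above 0.

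What varied was the level within each group. Control 2 was above control 1 in 31 of the 32 genes, with Ctsd as the exception, against 52.3% of all tested genes. The median of control 2 minus control 1 was 0.54 for the list and 0.02 for all genes. Dark-reared 1 was above dark-reared 2 in 20 of the 32 genes, at a median of 0.24. In 19 of the 32 genes, 59.4%, dark-reared 1 and control 2 both stood above dark-reared 2 and control 1, a pattern that 25.3% of all genes had. Control 1 was the lowest array for 20 of the 32 genes and the highest for 0, against 25.7% and 23.7% of all genes. Counts of this 19-gene pattern lay between 18 and 20 genes under each scaling, background and filter setting. Most endothelial markers, described below, had this placing of arrays too, so the pattern was not particular to the list. The pattern was noticed in the data and its origin was not tested.

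**Figure D2:**
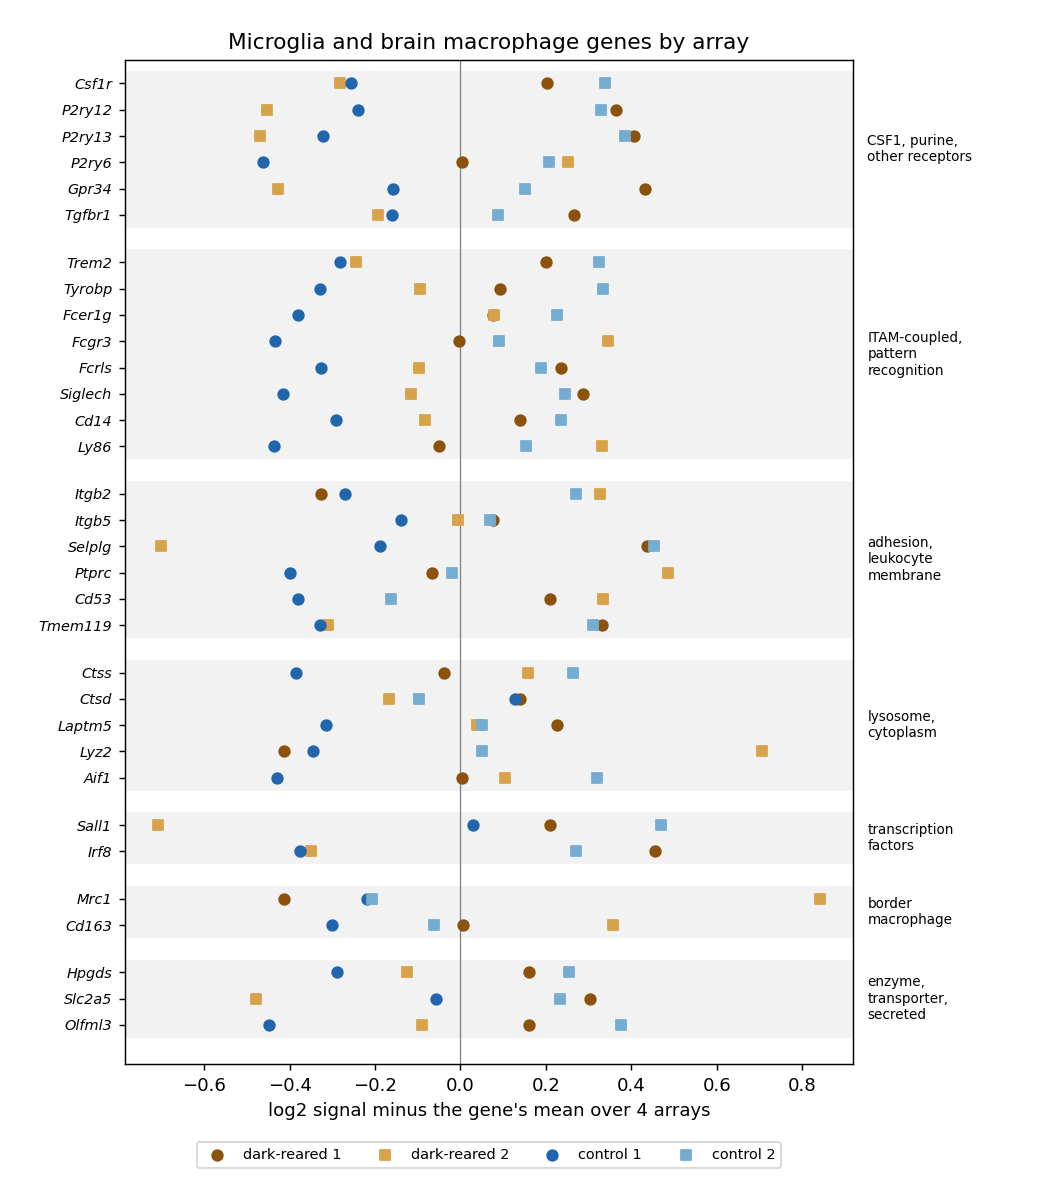
Log2 signal of each of the 32 tested genes on each array, minus the mean of that gene over the 4 arrays (horizontal axis), with genes grouped by role. Brown and tan symbols are dark-reared 1 and 2, dark and light blue symbols control 1 and 2. Control 1 is left of control 2 for every gene but Ctsd, and dark-reared 2 (tan squares) is far left for Selplg and Sall1 and far right for Mrc1 and Lyz2.

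Receptors that keep microglia alive or let them sense nucleotides showed the within-group pattern clearly. Csf1r, the receptor for CSF1 and IL34, read 2.08, 1.60, 1.63 and 2.22. The dark-reared mean was 1.84 ± 0.34 (SD, n = 2) and the control mean 1.92 ± 0.42 (SD, n = 2). They differed by -0.08 (limma standard error 0.31). The groups overlapped fully, with 1 high and 1 low sample in each. All 3 Csf1r probes placed control 2 highest, and 1 of them had the opposite sign of group difference, 0.09.

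P2ry12, the ADP receptor that steers microglial processes, had values of 1.21, 0.39, 0.60 and 1.17. Its neighbour on chromosome 3, the ADP receptor gene P2ry13, had -0.54, -1.41, -1.27 and -0.56. Gpr34, a lysophosphatidylserine receptor gene on the X chromosome, had -2.43, -3.29, -3.02 and -2.71. In all 3 the samples dark-reared 1 and control 2 were high, and dark-reared 2 was lowest, 1.76-fold to 1.84-fold below dark-reared 1. Their group differences were -0.09 (standard error 0.38), -0.06 (standard error 0.42) and 0.01 (standard error 0.35). Within slide 3 they were -0.78, -0.85 and -0.58.

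Tgfbr1, a receptor subunit for TGF-beta that many cell types also express, read 0.43, -0.03, 0.00 and 0.25, the same order of high and low samples over a smaller range. Its second probe gave a group difference of -0.23 in place of 0.07. P2ry6, a UDP receptor gene linked to phagocytosis, departed from the pattern at -0.46, -0.21, -0.92 and -0.25. There control 1 alone was low, 1.59-fold below control 2, and dark-reared 2 was highest. None of the 6 receptor genes passed (adjusted p = 1.00 in limma for each).

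Receptors that signal through adaptors with immunoreceptor tyrosine-based activation motifs (ITAM), with the pattern-recognition genes, had control 1 as the lowest array in 8 of 8 genes. Trem2, the lipid sensor, read 1.93, 1.49, 1.45 and 2.05, and its second probe gave the same arrays as high and low. Tyrobp, its adaptor, read 1.73, 1.54, 1.31 and 1.97, with a group difference of -0.0032. Dark-reared 1 and control 2 were the high samples for both genes, and control 2 was above control 1 by 1.52-fold for Trem2 and 1.58-fold for Tyrobp. Fcer1g, the common gamma chain of Fc receptors, read 1.61, 1.62, 1.16 and 1.76, so that its dark-reared values were nearly equal and its controls lay to either side.

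Fcrls, an Fc receptor-like gene enriched in mouse microglia, had values of 0.71, 0.38, 0.15 and 0.66. Siglech, a sialic acid-binding lectin gene, had -2.14, -2.54, -2.84 and -2.18. Cd14, a co-receptor for lipopolysaccharide, had -1.36, -1.58, -1.79 and -1.27. Each of these 3 had dark-reared 1 and control 2 high, and group differences from 0.06 to 0.17. The Fc gamma receptor gene Fcgr3 (-2.13, -1.78, -2.56 and -2.04) and Ly86, which encodes the partner of the toll-like protein CD180 (1.77, 2.15, 1.38 and 1.97), had dark-reared 2 highest instead. Their differences of 0.34 (standard error 0.26) and 0.28 (standard error 0.29) did not pass.

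Genes of adhesion and of leukocyte membranes divided along the same line. Tmem119, a membrane protein gene used to mark microglia, read 1.28, 0.64, 0.62 and 1.25, a group difference of 0.02 with a standard error of 0.35. Selplg, the ligand of P-selectin, read 1.25, 0.11, 0.63 and 1.27. Dark-reared 2 was 2.20-fold below dark-reared 1 for Selplg, and its second probe repeated this at -2.23 against -0.81. Itgb5, an integrin beta subunit that other brain cells also make, had the smallest range of the list, 0.21, at 2.05, 1.97, 1.84 and 2.04.

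The leukocyte genes Ptprc, Itgb2 and Cd53 had dark-reared 2 highest, as did 28.8% of all tested genes, whereas Selplg had it lowest. Ptprc, which encodes CD45, read -2.65, -2.10, -2.98 and -2.60; 1 of its 3 probes passed the filter. Itgb2, the beta chain shared by leukocyte integrins, read -2.34, -1.69, -2.28 and -1.74, with a group difference of 0.0011. The slide-3 samples were thus the high pair for Itgb2. Cd53, a leukocyte tetraspanin gene, read -2.63, -2.51, -3.22 and -3. The dark-reared mean was -2.57 ± 0.09 (SD, n = 2) and the control mean -3.11 ± 0.15 (SD, n = 2). The difference of 0.54 had a standard error of 0.16, a 95% interval of 0.08 to 1.00, an unadjusted limma p of 0.0307 and an adjusted p of 1.00. It took the opposite sign, -0.18, under a normexp background correction that also moved the median of all genes to -0.12.

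Lysosomal and cytoplasmic genes had control 1 as the lowest array in 3 of 5 tested cases. Ctsd, the lysosomal aspartic protease cathepsin D found in all cells, read 4.68, 4.38, 4.67 and 4.45, and it is the gene for which control 1 was above control 2. Ctss, cathepsin S of antigen-presenting cells, read 3.41, 3.61, 3.07 and 3.71. Aif1, which encodes the microglial stain IBA1, read 1.33, 1.43, 0.90 and 1.65. For both Ctss and Aif1, control 1 was lowest and control 2 highest, by 1.57-fold and 1.68-fold, and the dark-reared pair lay between them. Laptm5, a lysosomal membrane protein gene of blood-lineage cells, read 0.20, 0.01, -0.34 and 0.02, with a difference of 0.26 (standard error 0.20). Lyz2, lysozyme of macrophages and neutrophils, read -4.68, -3.56, -4.61 and -4.22, so dark-reared 2 stood 1.12 above dark-reared 1 on the log2 scale. Its signal was dim, at percentile 5.6 of the tested genes' mean levels, though well above background on all 4 arrays. The group difference of 0.29 became -0.50 with normexp. Lyz2 has a close copy, Lyz1, and the probe was not checked against it.

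Among the transcription factors, Sall1 had the most negative group difference of the list. Sall1, a zinc finger gene that holds microglial identity and is also expressed outside microglia, read -2.06, -2.97, -2.24 and -1.80. Dark-reared 2 was lowest, 1.89-fold below dark-reared 1, and the difference of -0.50 (standard error 0.39, 95% interval -1.58 to 0.58) did not pass. Irf8 read 0.01, -0.80, -0.82 and -0.18, which repeats the pattern of Csf1r and P2ry13. Its dimmer probe had no such split among controls, at -3.01 in each, and gave a group difference of -0.47 in place of 0.11. Spi1 had log2 signals of -5.44, -5.56, -5.93 and -5.21, none well above background, so no fold is given.

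Mrc1 and Cd163 of border macrophages had dark-reared 2 as the highest array. Mrc1 read -3.10, -1.84, -2.90 and -2.89, so that dark-reared 2 alone stood out while the controls differed by 0.01 in their logs. The difference of 0.43 had a standard error of 0.47, and it was -0.20 without dark-reared 2. Cd163, the haptoglobin-haemoglobin scavenger receptor gene, read -3.22, -2.87, -3.52 and -3.28. Both dark-reared samples lay above both controls, and the difference of 0.36 (standard error 0.20, adjusted p = 1.00 in limma) did not pass.

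The last 3 genes followed the within-group pattern. Hpgds, haematopoietic prostaglandin D synthase, read -2.68, -2.97, -3.13 and -2.59. Slc2a5, a fructose transporter gene that marks microglia in brain, read -0.25, -1.03, -0.61 and -0.32. Olfml3, a secreted olfactomedin-like gene enriched in microglia, read 0.48, 0.23, -0.13 and 0.70. Control 2 was 1.77-fold above control 1 for Olfml3, the widest gap between controls in the list. Group differences were 0.04, -0.17 and 0.07.

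The promoters of the listed genes were searched for the PU box, the short element bound by PU.1. The window was the 250 bases before each start site in RefSeq on GRCm38.p6, and 25 of the 34 genes had 31 such windows. The box, GAGGAA on either strand, was found in 14 of 31 windows (45.2%) of 13 genes (Cd68 among them, for which no probe was matched), against 7639 of 32851 windows of all genes (23.3%). A longer core that contains this box, GAGGAAGT, was in 1 window (Hpgds) and in 2.44% of all, and the PU.1-IRF composite element in 0 of 31 and 2.30% of all. Matches are letters in a window, and binding was not measured. A link between the box and the array patterns was not tested. Sequences of 6 genes with the box are shown, chosen to span both array patterns, in the gene's orientation with the box in capitals (TTCCTC where it lies on the opposite strand).
P2ry13, chr3:59210905-59210950, minus strand: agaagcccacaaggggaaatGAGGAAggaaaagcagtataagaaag
Trem2, chr17:48346341-48346386, plus strand: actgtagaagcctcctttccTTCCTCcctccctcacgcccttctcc
Fcrls, chr3:87263643-87263688, minus strand: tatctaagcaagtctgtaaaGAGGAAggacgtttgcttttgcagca
Cd53, chr3:106790163-106790208, minus strand: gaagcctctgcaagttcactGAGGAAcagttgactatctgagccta
Ptprc, chr1:138175438-138175483, minus strand: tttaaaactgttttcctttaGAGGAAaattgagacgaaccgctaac
Mrc1, chr2:14229359-14229404, plus strand: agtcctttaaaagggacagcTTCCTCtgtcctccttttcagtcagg
The box began 48 bases before the start site in P2ry13, 40 in Trem2, 144 in Fcrls, 39 in Cd53, 158 in Ptprc and 35 in Mrc1. The Mrc1 window held further boxes at 180 and 167 bases, which are not shown. P2ry13, Trem2 and Fcrls were high in dark-reared 1 and control 2, while Cd53, Ptprc and Mrc1 were highest in dark-reared 2; the choice of genes fixed that both patterns appear.

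Other microglia genes, outside the list, also varied within groups. Of 22 further microglia genes 21 were tested, 0 passed, and 15 had a positive and 6 a negative difference, with a median of 0.08. C1qa, of the complement protein that tags synapses, read 1.5, 1.43, 1.00 and 1.63, and the fractalkine receptor gene Cx3cr1 read 1.21, 0.78, 0.53 and 1.14. Control 1 was lowest for 12 of the 21 genes; the highest array was control 2 for 9, dark-reared 1 for 6, dark-reared 2 for 4 and control 1 for 2. The largest differences in this set were negative: -0.88 (standard error 0.59) for Runx1, a transcription factor of blood lineages, -0.44 (standard error 0.20) for Cyth4 and -0.32 (standard error 0.19) for P2rx4. Runx1 read -1.88, -3.47, -1.90 and -1.69, dark-reared 2 alone being low, and the phosphatase gene Inpp5d differed by 0.19.

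None of the genes for signals that act on microglia passed. Of 8 genes 7 were tested, 0 passed, and the median was -0.01. Il34, the neuronal ligand of the CSF1 receptor, read 2.21, 1.59, 1.66 and 2.13, the order of high and low arrays seen for its receptor. Cx3cl1, fractalkine, read 6.49, 5.59, 5.79 and 6.38, likewise, and Tgfb1 read -2.13, -2.29, -2.38 and -2.01, likewise. Csf1 did not follow this order, at -0.26, -0.07, 0.18 and -0.49. Neither did the inhibitory ligand Cd200, at 1.72, 3.24, 2.66 and 2.35, nor Tgfb2, at -0.18, 0.41, 0.30 and -0.28. Cd47 did not follow it either, and differed by -0.11 with a standard error of 0.26. Of all tested genes 25.3% had dark-reared 1 and control 2 above the other arrays. A link between ligands and receptors was not tested.

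Of the genes of activated and axon-tract microglia, 8 did not pass the detection filter. Of 18 genes 16 had a probe and 8 were tested, with 0 passing, 2 positive and 6 negative differences and a median of -0.07. Those not passing were Gpnmb, Itgax, Cst7, Ccl3, Ccl4, Il1b, Tnf and Lilrb4a, while Clec7a and Fabp5 had no probe under their symbols. Spp1, osteopontin, read -2.84, -1.82, -0.77 and -2.64, with control 1 high. Igf1 (-0.21), Lpl (-0.18) and Lgals3 (0.35) had the next largest differences, each with a standard error of at least 0.33. All 17 lysosome genes were tested, 0 passed, and their median was 0.05, with Ctsc (0.36), Ctsz (0.22), Npc2 (-0.22) and Neu1 (-0.17) furthest apart.

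Further border macrophage genes had dark-reared 2 as the highest array in 6 of 12 tested genes, of 13 listed, against 28.8% of all tested genes. The highest array was dark-reared 1 for 3 of them, control 1 for 2 and control 2 for 1. Pf4, a chemokine gene, read -1.53, -0.23, -0.96 and -1.10, and F13a1, a coagulation factor subunit, -2.24, -0.85, -1.70 and -1.42. Of these 12 genes 0 passed, and the median group difference was 0.02. Clec4n (0.74), Siglec1 (-0.50), Clec10a (-0.28) and Ms4a7 (-0.28) were furthest apart. Of these, Clec4n in control 2, Siglec1 in dark-reared 2 and Clec10a in dark-reared 1 were not well above background. Lyve1 did not pass the detection filter.

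Markers of other cells also varied between arrays. Of 12 monocyte and neutrophil markers 6 were tested, with summed signals of 12.3 and 13.7 in dark-reared samples and 10.2 and 10.8 in controls. Most of that sum was Ly6c2, whose near-identical relative Ly6c1 is an endothelial gene. S100a8, a neutrophil calcium-binding protein gene, read -3.54, -0.02, -3.31 and -4.34, and its partner S100a9 read -1.10, 1.88, -0.79 and -1.88. S100a8 was not well above background in control 2. Both were highest in dark-reared 2, the array on which 9 of the 32 listed genes were also highest: Mrc1, Lyz2, Ptprc, Itgb2, Fcgr3, Cd53, Cd163, P2ry6 and Ly86. This share of 28.1% was near the 28.8% of all tested genes. Mpo was tested, Ccr2, Elane, Camp, Ngp and Ltf did not pass the filter, and Ly6g had no probe under its symbol. Lymphocyte markers were dim, with summed signals of 0.50 and 0.49 against 0.65 and 0.64 for 5 tested of 10. Cd3e, a T cell receptor complex gene, read -3.28, -4.01, -1.83 and -1.93, lower in both dark-reared samples, and did not pass (limma adjusted p = 1.00).

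All 10 endothelial markers were tested, with summed signals of 28.8 and 24.1 against 25.8 and 29.9, and 8 were highest in dark-reared 1. Cldn5, a tight junction gene, read 3.89, 3.67, 3.75 and 4.05. Cldn5, Flt1, Kdr, Esam, Cdh5, Tie1, Ly6c1 and Pecam1 had both dark-reared 1 and control 2 above dark-reared 2 and control 1. Tek and Slco1a4 did not. Averaged over the 10 markers, log2 signals minus each gene's own mean were 0.13, -0.11, -0.1 and 0.08. For the microglia and macrophage list they were 0.13, -0.03, -0.29 and 0.19. The 9 tested oligodendrocyte markers were lowest in dark-reared 2 in 9 of 9 genes, with summed signals of 550.0 and 133 against 584 and 335; Mbp read 7.5, 5.49, 7.55 and 6.90. Astrocyte markers (10 of 10 tested) summed to 204 and 163 against 192 and 181, neuronal markers (9 of 9 tested) to 151 and 181 against 203 and 156, and erythrocyte markers (4 of 10 tested) to 95.4 and 93.8 against 96.1 and 82.1. Of 8 cortex and hippocampus markers 6 had a positive difference. The 13 microglia markers were all above background on all 4 arrays and summed to 29.4 and 22.7 against 21.0 and 30.2. The part of these other cells and of tissue content in the values of the listed genes was not tested.

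**Figure D3:**
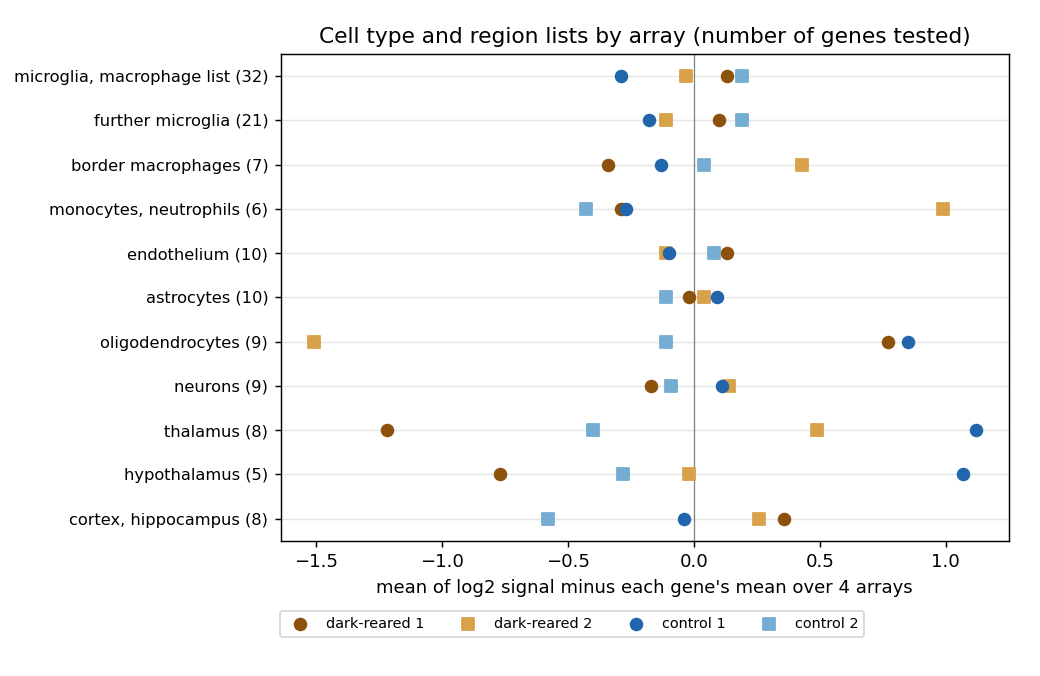
Mean over the tested genes of each list (number in brackets) of the log2 signal minus the gene's own mean over 4 arrays (horizontal axis), for the 4 arrays. The microglia and macrophage list spans -0.29 (control 1) to 0.19 (control 2), while monocyte and neutrophil markers reach 0.99 and oligodendrocyte markers -1.51 in dark-reared 2.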

How the data were processed

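Arrays were read with Feature Extraction, version 10.7.3.1 as the file headers give it and 10.7 in the submitters' processing notes; the deposited processed intensity is background-subtracted and detrended within 1 array, per the file headers, with no scaling between arrays. Outlier spots were left out, spots of a probe averaged, and each array's 75th percentile subtracted on the log2 scale. The authors also deposited log2 values, used as an alternative; how these were normalized is not stated. Of 41174 probes 26918 matched 1 of 18350 symbols through RefSeq accessions (names from GRCm38.p6; the array annotation is mm9). A probe entered the test when either group had it well above background on each of its arrays. The brightest probe stood for a gene with a symbol, and each probe without a symbol counted as a gene of its own. This gave 21642 genes, 14329 with a symbol and 7313 without, and some of the latter may share a gene. Shares of all genes are taken over this set. The fit used R 4.3.3 and limma 3.58.1 (two-sided, Benjamini-Hochberg over all genes, threshold 0.05). A run on simulated data required only that mean estimates lay near the planted changes, not that planted changes were called. It therefore says nothing on the power of the fit. The members and lists were chosen with earlier results of these data known. The rule for named genes takes all members, up to 4 genes of each further list by size of difference and up to 3 markers by level. C1qa, Cx3cr1, Il34, Csf1, Tgfb1 and F13a1 were chosen after their values were seen. So were the genes named as not passing the detection filter, and the endothelial markers beyond Cldn5, Flt1 and Kdr. Alternatives were other scalings, backgrounds, filters, probe summaries and variance models, a replicate block and each array left out. The arrays' number limits the precision.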

Additional observations from a re-analysis of the deposited data

How the results depend on the processing

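With limma, 0 genes and 0 members passed under every alternative run, where 271 genes had an unadjusted p under 0.05 in the reported fit and between 157 and 1192 under the alternatives. Genes at least 2-fold apart without overlap numbered 261, and 153 with normexp, 23 with normexp and outlying local backgrounds replaced, 817 with no filter, 81 with the filter on all 4 arrays and 533 to 892 with 1 sample left out (892 without dark-reared 1). Fewer samples make non-overlap easier to reach. Members with a positive difference numbered 23, and 16 with normexp, 25 with median scaling, 9 within slide 3 and 8 to 29 with 1 sample left out. Their median of 0.07 was 0.01 with normexp, -0.28 within slide 3 and -0.18 to 0.37 with 1 sample left out. Normexp moved the median of all genes to -0.12, so its signs are relative to that; the cause was not tested. The replicate number as a block (replicate block) gave 0 calls; deviations of same-numbered samples correlated at -0.158 over all genes and -0.241 over members, so the numbers were not taken to pair samples, although both replicate 2 samples share slide 3. Crossed pairing, chosen after seeing the data, gave 0 calls. Differences of members that took the opposite sign were Ctsd 0.0031, Tyrobp 0.029 with median scaling; Tyrobp 0.0039 with quantile normalization; Tyrobp 0.0049 with the deposited values; Cd14 -0.12, Cd163 -0.32, Cd53 -0.18, Csf1r 0.075, Ctsd 0.13, Fcgr3 -0.069, Gpr34 -0.41, Hpgds -0.34, Itgb2 -0.25, Lyz2 -0.50, Mrc1 -0.13, Ptprc -0.14, Siglech -0.20, Trem2 0.072, Tyrobp 0.14 with normexp; Gpr34 -0.037, Itgb2 -0.013, Tmem119 -0.010, Tyrobp 0.018 with normexp and backgrounds replaced. They were Irf8 -0.18, Tgfbr1 -0.080 with the mean of a gene's probes and Aif1 -0.22, Cd14 -0.32, Ctss -0.10, Fcer1g -0.15, Fcrls -0.28, Gpr34 -0.58, Hpgds -0.38, Irf8 -0.62, Itgb5 -0.076, Laptm5 -0.010, Olfml3 -0.46, Siglech -0.36, Tgfbr1 -0.28, Tmem119 -0.62 within slide 3. With 1 sample left out, 26 members changed sign in at least 1 case, with ranges of Aif1 -0.27 to 0.48, Cd14 -0.21 to 0.32, Csf1r -0.38 to 0.22, Ctsd -0.18 to 0.12, Ctss -0.20 to 0.44, Fcer1g -0.15 to 0.46, Fcrls -0.12 to 0.40, Gpr34 -0.42 to 0.44, Hpgds -0.24 to 0.31, Irf8 -0.30 to 0.51, Itgb2 -0.33 to 0.33, Itgb5 -0.036 to 0.17, Ly86 -0.013 to 0.58, Lyz2 -0.27 to 0.85, Mrc1 -0.20 to 1.05, Olfml3 -0.34 to 0.48, P2ry12 -0.50 to 0.32, P2ry13 -0.50 to 0.38, P2ry6 -0.079 to 0.59, Selplg -0.83 to 0.30, Siglech -0.16 to 0.50, Slc2a5 -0.56 to 0.21, Tgfbr1 -0.16 to 0.30, Tmem119 -0.30 to 0.34, Trem2 -0.35 to 0.26, Tyrobp -0.33 to 0.33.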
